A study of Homo sapiens with 12 samples.

Results

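MYC and 33 genes of ribosome assembly, 34 genes in all among the 62426 genes of the count table, were followed in 2 colon cancer cell lines with libraries labelled as overexpressing a CD44 isoform. The members were set by name: MYC, 3 subunits of RNA polymerase I, 4 proteins of the small nucleolar ribonucleoproteins (snoRNPs), 6 other nucleolar proteins, 13 factors of the small ribosomal subunit and 7 of the large one. The symbol in the deposited table matched 33 of them, and BOP1 was matched by its gene identifier (ENSG00000170727) through the reference annotation.

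HCT116 and SW480 are established human colorectal carcinoma lines. In each line, parental cells were set beside cells transfected with a plasmid for the standard isoform CD44s (CD44s-OE) or for the variant isoform CD44v6 (CD44v6-OE) and selected with Geneticin. Each of the 6 groups had 2 poly(A) RNA libraries, so 12 libraries were sequenced in all. The OE libraries are marked as pools of transfected cells, and no empty-plasmid or Geneticin-selected control was among the groups. Nothing states that the libraries of a group came from separate cultures, so p-values measure only the spread between these libraries, which may be technical.

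MYC is a transcription factor that binds DNA with its partner MAX and is known as a driver of growth in colon cancer downstream of Wnt signalling. Ribosome assembly starts in the nucleolus, where RNA polymerase I transcribes the rRNA precursor, snoRNPs guide its chemical modification, and large sets of assembly factors fold and cut it into the rRNAs of the small and large subunits. Genes of this pathway are textbook targets of MYC.

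The best known MYC-MAX recognition element is the E-box CACGTG. It was searched, as was the variant CACGCG on either strand, in RefSeq promoters of build GRCh38.p14 that run from 250 bases before to 50 bases after a gene's start. CACGTG is its own reverse complement, and the 2 motifs do not share a 6-base match. Promoters were matched for 28 of the 34 members, and BOP1, MYC, NOLC1, NOP58, RRP12 and RRS1 had no entry. CACGTG was present in 13 of the 28 members (46.4%), against 8.77% of 27305 genes in the table, 7.26% of its 35116 promoters and 12.6% of 10105 genes with a mean above 1 CPM (the count scaled to library size) in HCT116. CACGCG was present in 9 of the 28 (32.1%), against 13.5%, 11.4% and 23.0%. A match is a description of the letters, and no binding was measured. The windows below are shown because these 6 members carried an E-box and were lower in HCT116 CD44s-OE, as described further on. Each is a window of 30 bases on the gene's strand, 5′ to 3′, with the E-box in capitals. The E-box began 15 bases before the start in NAT10 (chr11:34105602-34105631, plus strand), 31 before it in DDX21 (chr10:68956604-68956633, plus strand) and 5 before it in RRP9 (chr3:51941892-51941921, minus strand). It began at base 16 of the transcript in NOP14 (chr4:2963374-2963403, minus strand), at base 7 in FBL (chr19:39846356-39846385, minus strand) and at base 14 in PES1 (chr22:30591880-30591909, minus strand).
NAT10: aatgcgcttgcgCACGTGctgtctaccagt
DDX21: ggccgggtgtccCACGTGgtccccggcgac
RRP9: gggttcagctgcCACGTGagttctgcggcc
NOP14: tccgcggcccggCACGTGtcttagggtagc
FBL: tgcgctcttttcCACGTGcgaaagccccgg
PES1: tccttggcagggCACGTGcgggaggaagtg

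The E-box was also found in members that did not pass. Of the 14 members with a promoter that passed the test below in HCT116 CD44s-OE, 6 held it (42.9%), and of the other 14, 7 did (50.0%). The other 7 were WDR43, PNO1, GNL3, LYAR, BYSL, NOP2 and UTP20. CACGCG was in 7 of the first 14 (50.0%) and in 2 of the second (14.3%).

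Each library held 43102156 to 52811889 counts, where each read of a pair was counted. CD44 itself, as CPM without further scaling and summed over isoforms, was at 538 and 526 in parental HCT116, at 552 and 533 in the libraries labelled CD44s-OE and at 509 and 524 in those labelled CD44v6-OE. Its SW480 levels were 172 and 165 in parental cells, 187 and 203 with CD44s-OE, and 135 and 147 with CD44v6-OE. Summed CD44 was thus above both parental libraries in SW480 CD44s-OE alone and overlapped them in HCT116 CD44s-OE. It was below them in both CD44v6-OE groups, narrowly in HCT116 (524 against 526 CPM), where 24.7% of all tested genes lay lower without overlap. The summed level went against the label in SW480 CD44v6-OE and was not raised in HCT116 CD44v6-OE. A sum over isoforms cannot show the level of a single isoform, which the study measured in its OE cells by RT-qPCR and western blot. CD44s-OE and CD44v6-OE are used below as labels of the libraries. CD44-AS1, annotated on the opposite strand of that locus, had 97 to 177 counts in the 4 CD44v6-OE libraries and 3 at most in any other. Of 10 markers of colon epithelium, CDX1, LGALS4 and CEACAM5 were below 1 CPM in all 12 libraries, and the summed level of the list was 4580 to 7082 CPM in HCT116 and 7862 to 16281 CPM in SW480. Summed markers of leukocytes (8 genes, all but CD14 and LYZ below 1 CPM throughout) reached 5.33 CPM at most. Those of endothelium (5 genes measured, CDH5, KDR, TEK and CLDN5 below 1 CPM throughout) reached 2.16 CPM. Those of fibroblasts (8 genes, COL1A2, PDGFRA, DCN, LUM and THY1 below 1 CPM throughout) reached 58.3 CPM. The colon epithelium sum was 5588 to 7082 CPM in HCT116 parental, 4580 to 5661 CPM in CD44s-OE and 5429 to 5959 CPM in CD44v6-OE, and of 7 of its genes tested in CD44s-OE against parental, EPCAM (log2 fold change -1.14, edgeR adjusted p = 0.00908) and CDH1 (-1.61, adjusted p = 0.00541) were lower and KRT20 was higher (1.13, adjusted p = 0.0495). The fibroblast sum was 13.4 to 19.2 CPM in HCT116 parental, 32.3 to 58.3 CPM in CD44s-OE and 32.7 to 35.4 CPM in CD44v6-OE, and of 3 of its genes tested, COL1A1 (adjusted p = 0.0302) and COL3A1 (adjusted p = 0.000912) were higher and PDGFRB was lower (adjusted p = 0.0982) in CD44s-OE. Of all genes tested in HCT116 CD44s-OE against parental, 5.71% were lower and 8.45% higher. In SW480 the colon epithelium sum was 16186 to 16281 CPM in parental cells, 7862 to 9150 CPM in CD44s-OE and 12800 to 14010 CPM in CD44v6-OE, and 5 of 6 genes tested were lower and 0 higher in CD44s-OE. The part of these lists in the results below was not tested.

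TPM, a level per unit of gene length computed from the counts and the deposited gene lengths, was used to compare levels between genes. That length is the union of a gene's annotated exons, so the order of the members depends in part on the annotation. Over the 12 libraries, NPM1, the histone chaperone nucleophosmin, had the highest mean at 1063 TPM, followed by FBL, the snoRNA-guided methyltransferase fibrillarin, at 674 TPM, NCL, the rRNA-binding protein nucleolin, at 452 TPM, MYC at 401 TPM and NOLC1, a snoRNP chaperone, at 319.8 TPM. In HCT116 parental cells MYC was at 451 ± 116 TPM (SD, n = 2) and NOLC1 at 455 ± 72.8 TPM, a difference inside their spread. In SW480 parental cells MYC (407 ± 145 TPM) and NCL (440 ± 37.4 TPM) could not be separated either. Below them, 29 members ranged from NOB1 at 253 TPM down to UTP15 at 6.40 TPM and NOP2 at 0.741 TPM, with UTP20 at 11.5 TPM and WDR12 at 15.1 TPM. For NOP2, a methyltransferase of the large subunit rRNA, 54.4% of exonic bases are shared with another gene on the same strand (ENSG00000285238). Reads in shared bases are not assigned, and the part of this overlap in the low value of NOP2 was not tested. Between 37 and 74 counts per library remained for NOP2, so it is listed in every count below but carries little information. TBL3 shared 18.1% of its exonic bases in the same way, RRS1 11.3%, and the other 31 members 6.65% at most.

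In HCT116, MYC and 16 of the 33 ribosome assembly genes were called lower in libraries labelled CD44s-OE than in parental libraries. Summed CD44 in these CD44s-OE libraries overlapped parental. The MYC call lay near the threshold, as given below. Of the 34 members, 17 were lower and 0 higher in an edgeR quasi-likelihood test at an adjusted p under 0.1, where 5.71% of the 17335 genes tested were lower and 8.45% higher. The median log2 fold change of the members was -0.47, against 0.04 over all genes tested, and 33 of the 34 values were below 0, against 46.3% of all genes. For 2 of these, GNL3 and NOP2, the value was 0.00 after rounding. The largest change was a log2 fold change of -0.86, so no member passed a second rule that also asks for an absolute log2 fold change over 1.5. Both CD44s-OE libraries lay below both parental libraries for 27 members, a pattern that 24.0% of all tested genes showed, and above both for 0 (27.5% of all tested genes). In bulk RNA, fewer cells that express a gene and less RNA per cell cannot be told apart, and a scaled count is blind to a change in total RNA per cell.

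The number of calls leaned on single libraries, and so did the share of all genes that were lower. Without HCT116 parental replicate 2, 1 member (NAT10) passed, in a fit in which only 0.386% of 18386 genes were lower, and the median of the members moved to -0.32 with 31 of 34 values below 0. That median was -0.54 without HCT116 parental replicate 1 and -0.49 without either CD44v6-OE library, against 0.08 and 0.04 over all genes. It was -0.39 without CD44s-OE replicate 1 and -0.56 without CD44s-OE replicate 2, against 0.02 and 0.01. In all of these fits the median of the members stayed between -0.56 and -0.32. The 3 groups of HCT116 share an estimate of spread, so the number of calls leaned on the CD44v6-OE libraries too. With only the CD44s-OE and parental libraries fitted, 6 members passed: HEATR1, NAT10, NCL, NOLC1, NOP14 and POLR1A. In that fit 2.15% of 16683 genes were lower, and the median of the members was -0.48.

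**Figure D1:**
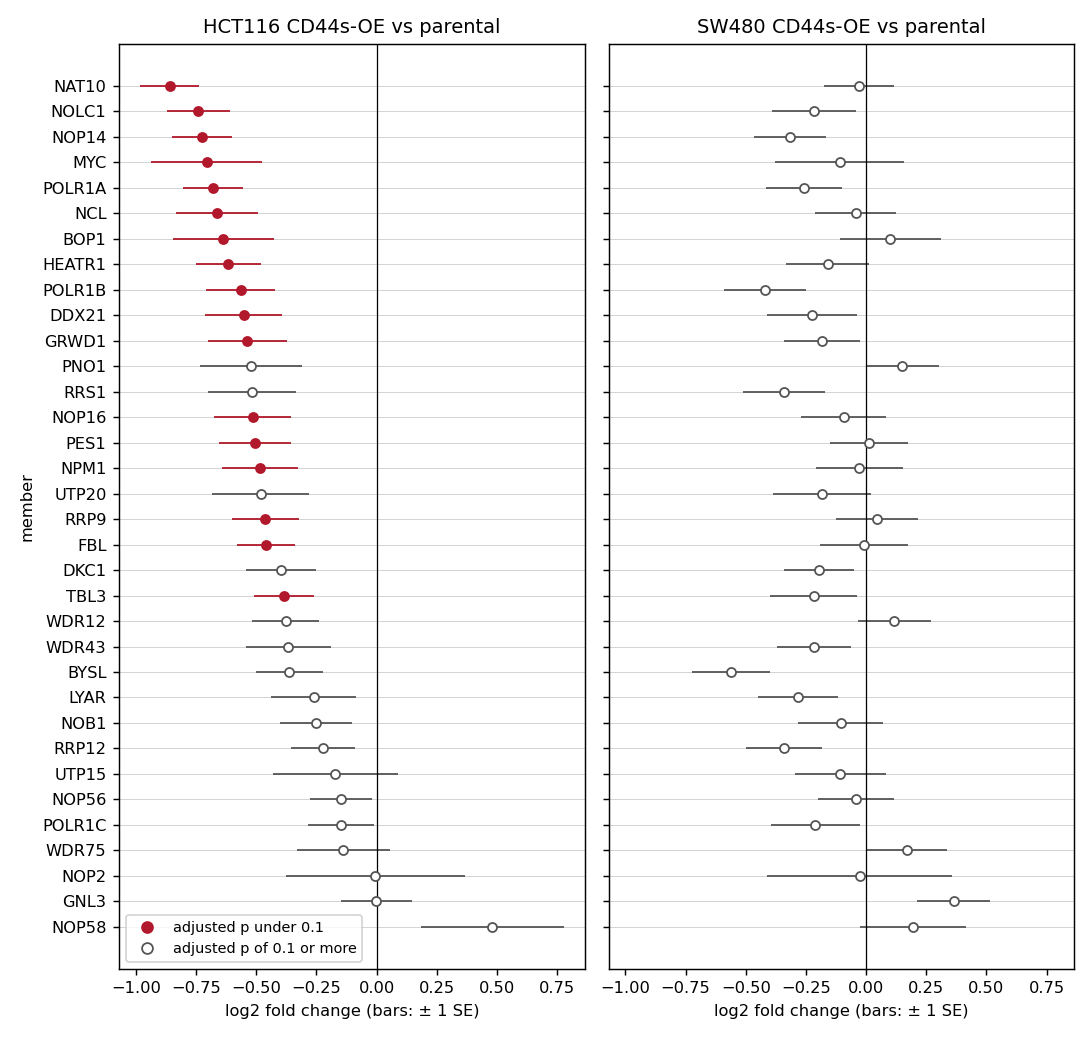
Log2 fold change of each member (horizontal axis, bars ± 1 SE) in CD44s-OE against parental cells, for HCT116 on the left and SW480 on the right, with members in the order of their HCT116 value. Filled red points passed at an adjusted p under 0.1: there are 17 in HCT116, all below 0, and 0 in SW480.

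MYC was at 577 and 810.4 CPM (scaled within each line by the trimmed mean of M values, TMM) in the parental HCT116 libraries, at 527 and 323 CPM with CD44s-OE and at 714 and 638 CPM with CD44v6-OE. The CD44s-OE libraries were lowest and did not overlap the other groups, but CD44s-OE replicate 1 lay nearer to parental replicate 1 than to the other CD44s-OE library. MYC (ENSG00000136997, chromosome 8 of hg19, 128747680 to 128755197) had a log2 fold change of -0.71 (SE 0.23, edgeR adjusted p = 0.0939). Leaving out single libraries moved this value between -1.11 and -0.41. The MYC call was kept in 7 alternatives and lost in 8, with no change of sign. In SW480, MYC was at 822 and 458 CPM in parental cells, at 525 and 662 CPM with CD44s-OE and at 784 and 593 CPM with CD44v6-OE. The parental SW480 libraries thus spanned those of both OE groups.

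RNA polymerase I makes the rRNA precursor. POLR1A, its largest subunit, was at 155 and 159 CPM in parental HCT116, at 104 and 92.5 CPM with CD44s-OE and at 134 and 129 CPM with CD44v6-OE, 3 groups with no overlap. POLR1B, the second largest subunit, was at 68.3 and 84.8 CPM in parental HCT116, at 52.8 and 50.6 CPM with CD44s-OE and at 62.0 and 66.6 CPM with CD44v6-OE. Both subunits fell in HCT116 CD44s-OE, POLR1A with a log2 fold change of -0.68 (SE 0.12, edgeR adjusted p = 0.0156) and POLR1B with -0.56 (SE 0.14, adjusted p = 0.0464). In SW480, POLR1A was at 137 and 133 CPM in parental cells, at 126 and 100.002 CPM with CD44s-OE and at 122 CPM in both CD44v6-OE libraries. POLR1B was at 93.2 and 77.3 CPM in parental SW480, at 71.5 and 55.9 CPM with CD44s-OE and at 75.2 and 80.5 CPM with CD44v6-OE. CD44s-OE was below parental in both SW480 libraries for both subunits, but neither passed there (log2 fold changes -0.26 and -0.42, adjusted p = 0.490 and 0.258). POLR1C, a subunit shared with RNA polymerase III, had a value of -0.15 in HCT116 and did not pass.

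Among the core snoRNP proteins, only FBL passed in HCT116 CD44s-OE. It was at 491 and 509.7 CPM in parental HCT116, at 342 and 386 CPM with CD44s-OE and at 443 and 422 CPM with CD44v6-OE, so CD44s-OE was lowest and CD44v6-OE in between. The log2 fold change of CD44s-OE against parental was -0.46 (SE 0.12, adjusted p = 0.0489). In SW480, FBL was at 602 and 501 CPM in parental cells, at 479.7 and 616 CPM with CD44s-OE and at 537 and 489 CPM with CD44v6-OE, with all groups overlapping. DKC1, the pseudouridine synthase dyskerin, and NOP56, a scaffold of the methylation snoRNPs, had values of -0.40 and -0.15 in HCT116 CD44s-OE and did not pass. NOP58, the partner of NOP56, was the 1 member with a value above 0 (0.48, SE 0.30, adjusted p = 0.354). It was at 59.6 CPM in CD44s-OE replicate 1 and at 128 CPM in replicate 2, against 61.7 and 72.8 CPM in parental HCT116. NOP58, and BYSL below, were chosen for values in each library after those values were seen.

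The nucleolar chaperones and helicases included 4 that fell in HCT116 CD44s-OE: NOLC1, NCL, DDX21 and NPM1. NOLC1 was at 546 and 668 CPM in parental HCT116, at 348 and 379 CPM with CD44s-OE and at 532 and 522 CPM with CD44v6-OE, and its log2 fold change for CD44s-OE was -0.74 (SE 0.13, adjusted p = 0.0140). Its SW480 values were 418 and 331 CPM in parental cells, 334 and 310.5 CPM in CD44s-OE and 411 and 346 CPM in CD44v6-OE, where CD44s-OE overlapped parental. NCL was at 1244 and 1556 CPM in parental HCT116, at 748 and 1020 CPM with CD44s-OE and at 1081 and 993 CPM with CD44v6-OE. Both OE groups of HCT116 thus lay below parental for NCL and overlapped each other, and its log2 fold change for CD44s-OE was -0.66 (SE 0.17, adjusted p = 0.0464). In SW480, NCL was at 994 and 1045 CPM in parental cells, at 983 and 995 CPM with CD44s-OE and at 979 and 828 CPM with CD44v6-OE. DDX21, an RNA helicase of rRNA transcription and processing, was at 188 and 245 CPM in parental HCT116, at 133 and 163 CPM with CD44s-OE and at 189 and 199 CPM with CD44v6-OE. Its log2 fold change for CD44s-OE was -0.55 (SE 0.16, adjusted p = 0.0669), while CD44v6-OE overlapped parental. In SW480, DDX21 was at 171 and 159.9 CPM in parental cells, at 164 and 119 CPM with CD44s-OE and at 165 and 129 CPM with CD44v6-OE, and the groups overlapped. NPM1 fell too, at -0.48 on the log2 scale (edgeR adjusted p = 0.0957), but its call was kept in 6 alternatives and lost in 9. GNL3, a nucleolar GTPase, and LYAR had values of 0.00 and -0.26 and did not pass.

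Factors of the small subunit gave 5 of the 13 members as lower in HCT116 CD44s-OE. The smallest adjusted p of all members was that of NAT10, the acetyltransferase that makes N4-acetylcytidine in 18S rRNA (ENSG00000135372, chromosome 11 of hg19, 34127164 to 34169217). It was at 181 and 201 CPM in parental HCT116, at 107 and 103 CPM with CD44s-OE and at 158 and 162 CPM with CD44v6-OE, with narrow groups and no overlap. Its log2 fold change for CD44s-OE was -0.86 (SE 0.12, adjusted p = 0.00563), and it stayed between -0.94 and -0.79 when single libraries were left out. In SW480, NAT10 was at 159.9 and 144 CPM in parental cells, at 151 and 147 CPM with CD44s-OE and at 152 and 149 CPM with CD44v6-OE, and all 3 groups overlapped. NOP14, a scaffold protein of the early small subunit precursor, was at 176 and 202 CPM in parental HCT116, at 113 and 116 CPM with CD44s-OE and at 165 and 158 CPM with CD44v6-OE. In SW480, NOP14 was at 116 and 111 CPM in parental cells, at 96.1 and 86.3 CPM with CD44s-OE and at 115 and 106 CPM with CD44v6-OE. CD44s-OE was thus lowest in both lines for NOP14, with log2 fold changes against parental of -0.73 (SE 0.13, adjusted p = 0.0125) in HCT116 and -0.32 (SE 0.15, adjusted p = 0.330) in SW480.

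HEATR1, a factor of pre-rRNA transcription and processing, was at 99.6 and 97.9 CPM in parental HCT116, at 58.9 and 70.0 CPM with CD44s-OE and at 78.2 and 85.6 CPM with CD44v6-OE, and its log2 fold change for CD44s-OE was -0.61 (SE 0.14, adjusted p = 0.0292). In SW480, HEATR1 was at 56.9 and 55.4 CPM in parental cells, at 57.1 and 43.5 CPM with CD44s-OE and at 59.4 and 52.7 CPM with CD44v6-OE, with overlap throughout. RRP9, a protein of the U3 snoRNP, was at 75.5 and 89.9 CPM in parental HCT116, at 63.3 and 56.8 CPM with CD44s-OE and at 83.2 and 80.1 CPM with CD44v6-OE. Its log2 fold change for CD44s-OE was -0.46 (SE 0.14, adjusted p = 0.0756), and CD44v6-OE overlapped parental. In SW480, RRP9 was at 60.7 and 57.4 CPM in parental cells, at 52.4 and 69.3 CPM with CD44s-OE and at 52.4 and 53.3 CPM with CD44v6-OE. TBL3, of the same early precursor, was the fifth to pass, at -0.39 (adjusted p = 0.0919). The other 8 members of this group, RRP12, UTP20, UTP15, WDR43, WDR75, BYSL, PNO1 and NOB1, had values from -0.52 to -0.14 and did not pass.

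The large subunit factors that fell in HCT116 CD44s-OE were PES1, GRWD1, NOP16 and BOP1, 4 of 7 members. PES1, which with BOP1 and WDR12 forms the PeBoW complex, was at 287 and 358 CPM in parental HCT116, at 206 and 249 CPM with CD44s-OE and at 304 and 289 CPM with CD44v6-OE. CD44v6-OE overlapped parental, and the log2 fold change of CD44s-OE was -0.50 (SE 0.15, adjusted p = 0.0714). In SW480, PES1 was at 204 and 177 CPM in parental cells, at 177 and 207 CPM with CD44s-OE and at 189 and 164 CPM with CD44v6-OE. GRWD1, a histone-binding WD-repeat protein, was at 106 and 149 CPM in parental HCT116, at 89.6 and 85.9 CPM with CD44s-OE and at 119 and 118 CPM with CD44v6-OE, with a log2 fold change for CD44s-OE of -0.54 (SE 0.16, adjusted p = 0.0780). In SW480, GRWD1 was at 152 and 131 CPM in parental cells, at 115 and 134 CPM with CD44s-OE and at 122 and 116 CPM with CD44v6-OE. CD44s-OE overlapped parental there, as it did for PES1. The values of BOP1 and NOP16 in HCT116 were -0.64 and -0.52 (adjusted p = 0.0961 and 0.0833). WDR12 (-0.38), RRS1 (-0.52) and NOP2 did not pass.

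**Figure D2:**
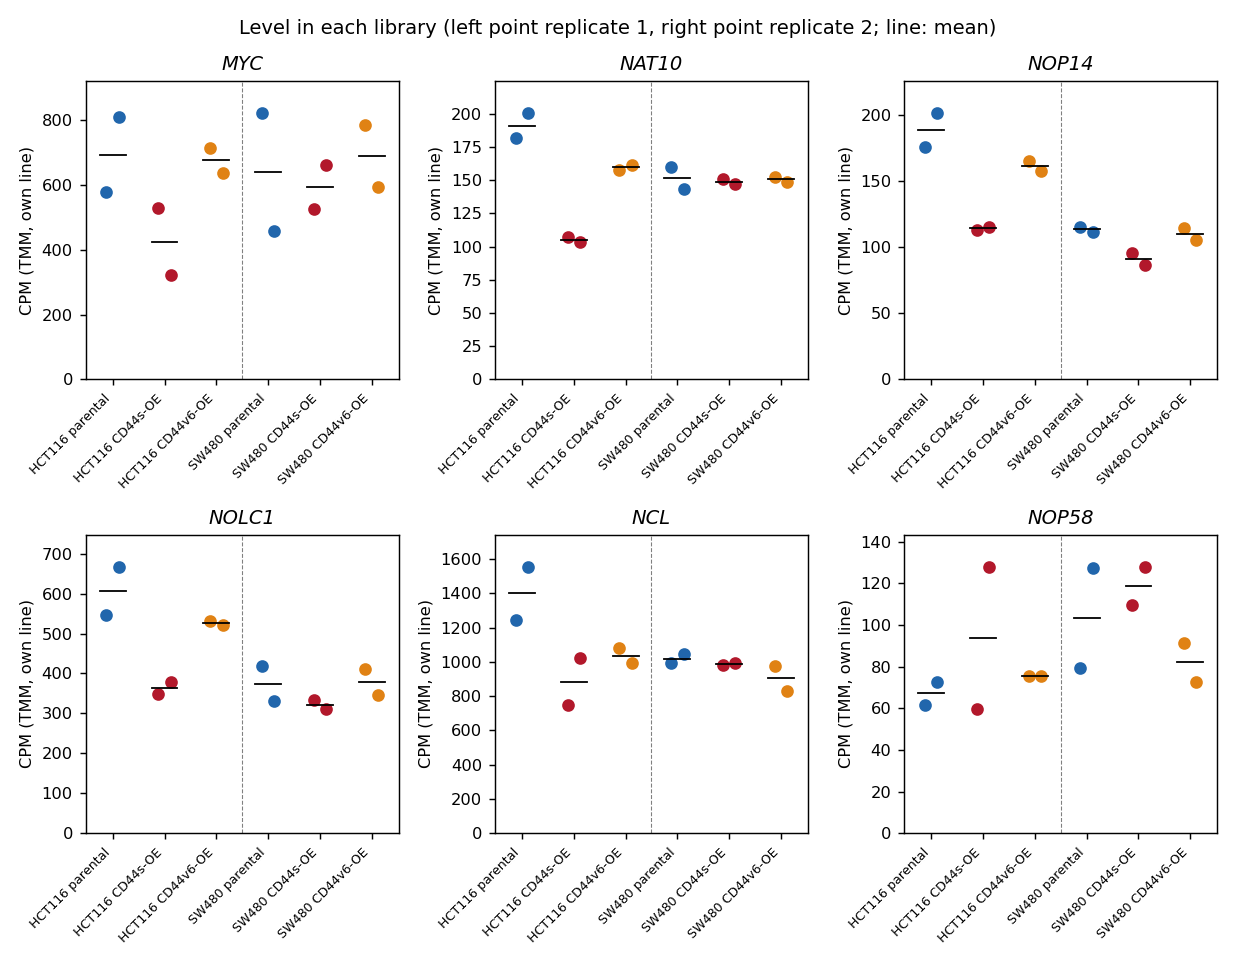
Level of 6 members in each library (CPM after TMM scaling in each line, vertical axes from 0), by group, with the mean as a line. NAT10 and NOP14 sit apart in HCT116 CD44s-OE, whereas the MYC libraries of a group lie far from each other and NOP58 reaches 128 CPM in 1 HCT116 CD44s-OE library.

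In HCT116 CD44v6-OE cells, 0 of 34 members passed against parental (edgeR, adjusted p under 0.1; 1.53% of all tested genes passed), and 1 had an unadjusted p under 0.05. The median log2 fold change was -0.12, against 0.00 over all genes, and 30 of 34 values were below 0. Both CD44v6-OE libraries were below both parental libraries for 14 members (24.7% of all genes) and above both for 3 (27.1%). NCL had the lowest value, -0.43 (SE 0.17, adjusted p = 0.375).

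When the 2 isoforms were compared directly in HCT116, CD44s-OE was lower than CD44v6-OE for 1 member, NAT10, with a log2 fold change of -0.60 (SE 0.12, edgeR adjusted p = 0.0888; 0.392% of all tested genes were lower). NAT10 no longer passed when a parental library or a CD44v6-OE library was left out, and its adjusted p was then 0.187 to 0.887 and its log2 fold change -0.63 to -0.59. Both CD44s-OE libraries were below both CD44v6-OE libraries for 22 members (20.9% of all genes) and above both for 0 (20.4%). The median log2 fold change was -0.26, with MYC at -0.67 (SE 0.23, adjusted p = 0.331). The median of the members was -0.25 without CD44s-OE replicate 1 and -0.40 without CD44s-OE replicate 2, against -0.01 and -0.02 over all genes. Each of these fits leaves 1 CD44s-OE library, so members passing are not counted here. The comparisons within a line share libraries, so their values are not independent of each other.

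In SW480 no member passed in any comparison. The counts were 0 of 34 for CD44s-OE against parental (4.72% of all tested genes passed in edgeR), 0 for CD44v6-OE against parental (0.57%) and 0 for CD44s-OE against CD44v6-OE (2.12%), with 3, 1 and 1 members at an unadjusted p under 0.05. The median log2 fold changes were -0.11, -0.16 and 0.06, against 0.00, -0.01 and 0.01 over all genes. Values were below 0 for 26, 29 and 13 of 34 members, against 49.7%, 51.9% and 48.5% of all genes. CD44s-OE lay below parental without overlap for 9 members (20.5% of all genes) and above for 4 (22.1%). CD44v6-OE lay below parental without overlap for 14 (18.5%) and above for 0 (20.2%), and CD44s-OE lay below CD44v6-OE for 5 (23.9%) and above for 10 (23.1%). BYSL, a factor of late small subunit assembly, came nearest to passing. It was at 60.9 and 50.9 CPM in parental SW480, at 37.2 and 38.4 CPM with CD44s-OE and at 42.7 and 39.6 CPM with CD44v6-OE, with log2 fold changes against parental of -0.56 (SE 0.16, adjusted p = 0.103) and -0.44 (SE 0.16, adjusted p = 0.431). Without SW480 parental replicate 2, the median of the members for CD44s-OE against parental was -0.16, against 0.05 over all genes, with 26 of 34 values below 0.

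**Figure D3:**
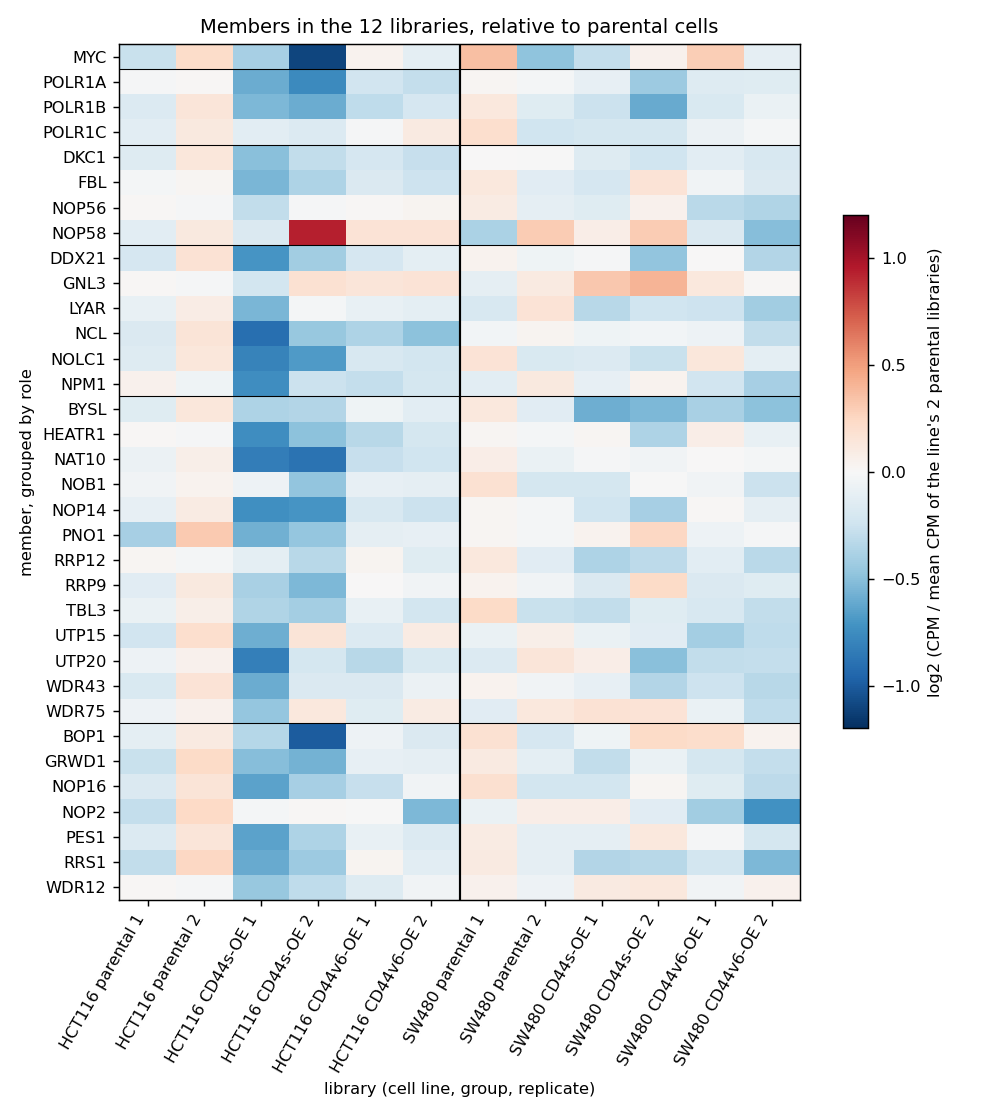
Members (vertical axis, grouped by role) in the 12 libraries (horizontal axis), coloured by the log2 ratio of the CPM to the mean of the line's 2 parental libraries. The 2 HCT116 CD44s-OE columns are blue for most members, while the SW480 columns are paler. In SW480, 26 members in CD44s-OE and 29 in CD44v6-OE had a fitted log2 fold change against parental below 0.

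A fit of both lines with line as a term estimated the average change over HCT116 and SW480, which 1 line can carry. For CD44s-OE against parental, 4 libraries against 4, 5 of 34 members were lower and 0 higher (2.83% of 19567 genes were lower). These were NOP14 (log2 fold change -0.51, SE 0.11, edgeR adjusted p = 0.0208), POLR1B (-0.48, SE 0.11, adjusted p = 0.0327), BYSL (-0.46, SE 0.11, adjusted p = 0.0366), POLR1A (-0.46, SE 0.11, adjusted p = 0.0407) and NOLC1. The median was -0.28, against 0.04 over all genes. Without HCT116 parental replicate 2, 1 member passed, NOP14 (0.866% of all genes were lower), and without HCT116 CD44s-OE replicate 2, 3 (1.84%). Without SW480 parental replicate 2 or SW480 CD44s-OE replicate 1, 9 passed (3.82% and 2.02%). No member passed for CD44v6-OE against parental (0.204% of all genes) or for CD44s-OE against CD44v6-OE (0.905%), where 1 and 4 had an unadjusted p under 0.05 and the medians were -0.14 and -0.11.

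The difference between the lines was tested directly, as the SW480 log2 fold change minus that of HCT116. For CD44s-OE against parental, 1 member passed, NAT10, with a difference of 0.85 (SE 0.18, edgeR adjusted p = 0.0282; 1.65% of all tested genes were higher): its fold change was -0.86 in HCT116 and -0.03 in SW480. The call was lost without HCT116 parental replicate 2 (0.78, adjusted p = 0.128). The difference was above 0 for 29 of 34 members with a median of 0.36, against 50.0% and 0.00 of all genes, but for the other 33 members it was not past the threshold. That holds for MYC too (0.62, SE 0.42, adjusted p = 0.529). No member passed for the line difference in CD44v6-OE against parental (0.409% of all genes), with 0 at an unadjusted p under 0.05 and a median of -0.03, or in CD44s-OE against CD44v6-OE (0.491%), with 5. In that last contrast all 34 differences were above 0 with a median of 0.33, against 48.3% of all genes.

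Parental SW480 and parental HCT116 differed in 18 members: 15 were lower in SW480 (29.2% of all tested genes were lower) and 3 higher (31.7%). BOP1 had the largest difference. It was at 15.5 and 11.8 CPM in SW480 and at 39.1 and 45.9 CPM in HCT116 (scaled over the 12 libraries), a log2 difference of -1.64 (SE 0.22, edgeR adjusted p = 2.96e-05). POLR1C was at 37.05 and 27.1 CPM in SW480 and at 60.8 and 71.8 CPM in HCT116 (-1.05, SE 0.16, adjusted p = 9.65e-05), and NOB1, the nuclease that cuts the 3′ end of 18S rRNA, at 158 and 119 CPM against 242 and 258 CPM (-0.85, SE 0.17, adjusted p = 0.000961). The 3 that were higher in SW480 were DKC1 (0.94, SE 0.14, adjusted p = 6.91e-05), UTP20 (0.44, SE 0.22, adjusted p = 0.0985) and NPM1 (0.36, SE 0.17, adjusted p = 0.0889). Over 16 alternatives the call was lost in 10 for UTP20 (adjusted p up to 0.377) and in 7 for NPM1 (up to 0.316), with values above 0 throughout. Both lost it without either HCT116 parental library, either HCT116 or SW480 CD44v6-OE library or SW480 parental replicate 2. DKC1 was at 259 and 256 CPM in SW480 and at 121 and 148 CPM in HCT116. MYC did not pass (-0.12, SE 0.30, adjusted p = 0.748).

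Libraries of 1 group also differed from each other across the pathway. In parental HCT116, 28 of 34 members were higher in replicate 2 than in replicate 1, with a median log2 difference of 0.23, against 51.8% and 0.01 over 13241 genes above 1 CPM. In HCT116 CD44v6-OE, 15 were higher in replicate 2 (median -0.01), and in CD44s-OE 23 (median 0.16), with MYC at -0.71 and NOP58 at 1.09. In SW480, 9 of 34 were higher in replicate 2 of the parental group, 21 in CD44s-OE and 8 in CD44v6-OE, with medians of -0.10, 0.03 and -0.13. MYC itself was 0.84 lower on the log2 scale in replicate 2 than in replicate 1 of parental SW480. The summed level of the 34 members was 7421 and 8460 CPM in parental HCT116, 5236 and 5954 CPM in CD44s-OE and 7028 and 6891 CPM in CD44v6-OE. The sums in SW480, in the same order of groups, were 7520 and 7078 CPM, 6674 and 7153 CPM, and 6922 and 6095 CPM.

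**Figure D4:**
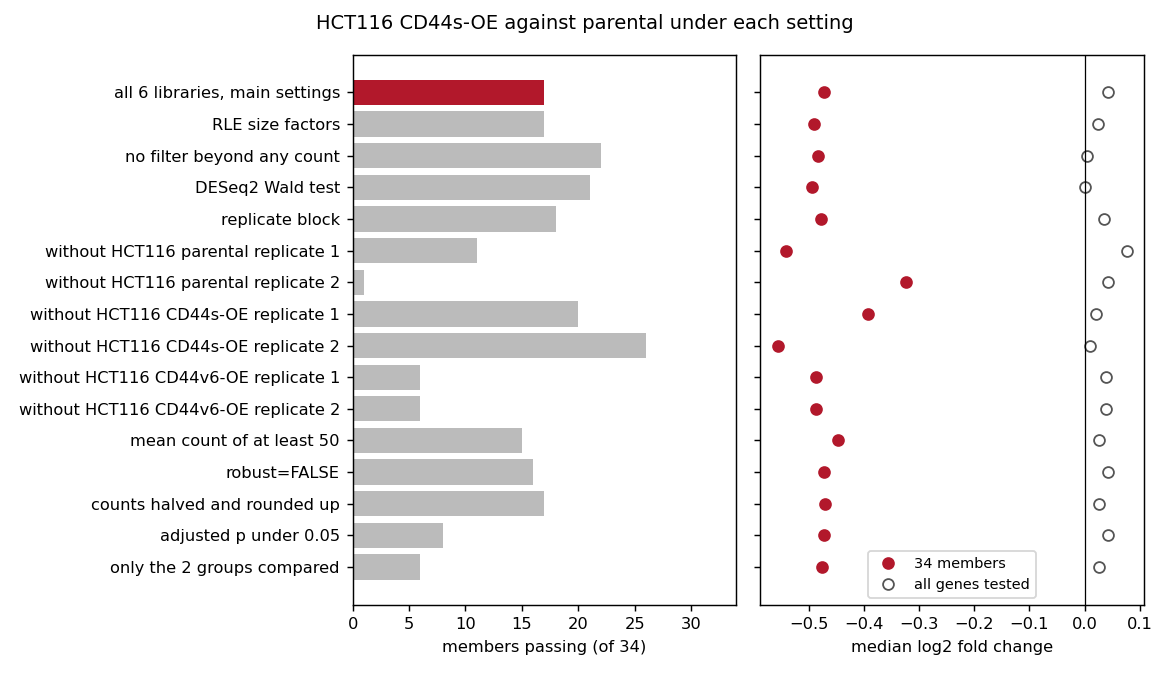
HCT116 CD44s-OE against parental under each setting: number of members passing out of 34 (left) and median log2 fold change of the members (red) and of all tested genes (open points, right). The count moves between settings, as does the share of all tested genes that were lower (not shown), while the median of the members stays between -0.56 and -0.32.

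Other genes of the same pathway, listed by role, were read in the same fits. The counts that follow stand beside 5.71% of all tested genes lower and 8.45% higher, with a median of 0.04. In HCT116 CD44s-OE against parental, 5 of 10 other snoRNP factors were lower and 0 higher (median log2 fold change -0.51), among them RUVBL1, an ATPase of snoRNP assembly (-0.63, SE 0.12, adjusted p = 0.0182), and NHP2 (-0.70, SE 0.14, adjusted p = 0.0197). Of 37 other small subunit factors, 10 were lower and 1 higher (median -0.31), with WDR3 at -0.85 (adjusted p = 0.0109), EMG1 at -0.59 (adjusted p = 0.0254) and KRR1, the 1 that was higher, at 0.70 (adjusted p = 0.0948). Of 40 other large subunit factors, 10 were lower and 0 higher (median -0.28), with NOC2L at -0.80 (adjusted p = 0.00572) and NLE1 at -0.75 (adjusted p = 0.0221). NOC2L was at 618 and 637 CPM in parental HCT116 and at 361 CPM in both CD44s-OE libraries. Of 11 other RNA polymerase I factors, POLR1E (-0.70, adjusted p = 0.0197) and POLR1G (-0.78, adjusted p = 0.0417) were lower and TAF1D (0.66, adjusted p = 0.0620) was higher, with a median of -0.20. The exosome, which trims rRNA precursors, had 2 of 12 subunits lower, EXOSC5 (-0.55) and EXOSC3 (-0.61), with a median of -0.11.

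Of 19 other MYC targets tested in HCT116, 8 were lower (5.71% of all tested genes) and 0 higher (8.45%) in CD44s-OE (median -0.43). ODC1, the first enzyme of polyamine synthesis, was at 609.6 and 629 CPM in parental cells, at 339 and 340.0 CPM with CD44s-OE and at 488 and 491 CPM with CD44v6-OE, a log2 fold change of -0.87 for CD44s-OE (SE 0.11, adjusted p = 0.00418). In the MYC network, 0 of 10 genes were lower and 1 was higher, MXD4, a MAX partner that opposes MYC (0.95, SE 0.20, adjusted p = 0.0233), and the median was -0.03. MXD1, of the same family, was at 3.50 and 2.07 CPM in parental HCT116, at 7.83 and 3.66 CPM with CD44s-OE and at 18.8 and 19.6 CPM with CD44v6-OE. Its log2 fold change was 2.78 (SE 0.37, adjusted p = 0.0139) for CD44v6-OE against parental and -1.74 (adjusted p = 0.0888) for CD44s-OE against CD44v6-OE. No other gene of these lists passed in those 2 comparisons.

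Of 15 proliferation genes, 10 were lower (5.71% of all tested genes) and 0 higher (8.45%) in HCT116 CD44s-OE against parental (median -0.50). PLK1 was at -0.83 (edgeR adjusted p = 0.00532) and MCM2 at -0.84 (adjusted p = 0.00734). The summed level of the 15 genes was 3945 to 4037 CPM in the parental HCT116 libraries, 2499 to 3177 CPM in CD44s-OE and 3404 to 3414 CPM in CD44v6-OE. The part of this list in the members' values was not tested. Without HCT116 parental replicate 2, the median log2 fold change was -0.50 for the proliferation genes and -0.40 for the other MYC targets. It was -0.20 and -0.19 for the other small and large subunit factors, against 0.04 over all genes. That fit leaves 1 parental library, and fewer genes of these lists passed in it, as over all tested genes.

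In SW480, CD44s-OE against parental gave 5 lower genes and 0 higher of 155 tested in the 8 lists, or 3.23%, near the 2.22% of all tested genes that were lower. They came 1 each from 5 lists, and none from the other large subunit factors (0 of 40), the exosome (0 of 12) or the proliferation genes (0 of 15). MYCL, a relative of MYC, was at 10.9 and 13.7 CPM in parental SW480, at 5.31 and 4.64 CPM with CD44s-OE and at 9.89 and 10.1 CPM with CD44v6-OE (log2 fold change of CD44s-OE against parental -1.31, SE 0.22, adjusted p = 0.0109). CCND2, a cyclin and MYC target, was at 28.8 and 21.6 CPM in parental SW480 and at 10.4 and 9.16 CPM in CD44s-OE (-1.36, SE 0.21, adjusted p = 0.00638). SW480 CD44v6-OE against parental gave 0 calls in these lists, and the median of the proliferation genes there was -0.05.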

How the data were processed

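Poly(A) RNA from 12 libraries was sequenced in paired ends on DNBSEQ. Per the submitters' processing notes and the study's methods, the authors filtered reads with SOAPnuke, aligned them to hg19 with STAR 2.7.9a, marked duplicates with Sambamba and counted reads on the reverse strand over GENCODE v35lift37 genes with featureCounts (Subread 2.0.3). The deposited counts were not normalized. They hold even values more often than odd ones, as when both mates of a pair are counted, and 6 counts (3 pairs) are therefore the floor. A second deposited table holds log2-like values after a variance-stabilizing transformation in DESeq2 1.30.1 by the authors, used here only as a side check.

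Totals of 43102156 to 52811889 counts per library set the precision. Groups came from the sample labels. CPM (counts scaled to library size) were scaled by TMM within each line, and TPM used the deposited gene length, which is a union of exons. Tests were quasi-likelihood fits in edgeR 4.0.16 (R 4.3.3, filterByExpr, robust) with 3 groups per line, or all 12 libraries for fits over both lines, and Benjamini-Hochberg adjustment over all 17335 genes tested in HCT116, 17539 in SW480 or 19567 in 12 libraries. A gene passed at an adjusted p under 0.1. SE are on the log2 scale. Replicate differences are of log2(CPM + 1). Alternatives were other size factors, filters and thresholds, DESeq2 1.42.0, a replicate block, halved counts, fits of 2 groups only and each library left out. The code was tested on simulated data.

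Values in every library were set to be given for MYC and the 12 passing members with the smallest adjusted p within a line, and other lists were set to give up to 2 passing genes in each direction. The members and lists were chosen with earlier results of these data known. Promoters came from RefSeq (GRCh38.p14), while gene positions are of hg19. Promoters and sequences on human chromosome 8, and proteins, were not used here.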

Additional observations from a re-analysis of the deposited data

Results flagged for a closer look

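The NAT10 difference between libraries labelled CD44s-OE and parental libraries was not the same in the 2 lines by a direct test of the difference. The SW480 log2 fold change of CD44s-OE against parental cells minus that of HCT116 was 0.853 (SE 0.18, edgeR adjusted p = 0.0282), with -0.86 in HCT116 and -0.03 in SW480. Both HCT116 CD44s-OE libraries (107 and 103 CPM) lay below both parental libraries (181 and 201 CPM), whereas in SW480 the CD44s-OE libraries (151 and 147 CPM) lay between the parental ones (159.9 and 144 CPM). Over the alternatives the adjusted p ranged from 0.000952 to 0.128, and it was above 0.1 without HCT116 parental replicate 2 alone.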

How the results depend on the processing

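Of the alternative values of single named genes, 422 kept direction and call, 108 lost the call, 2 gained it and 7 changed sign. In HCT116 CD44s-OE against parental, 17 members passed, with 8 at an adjusted p under 0.05 and 6 with only the 2 groups compared. The same comparison of CD44v6-OE gave 0, with 1 without the filter and 1 with 2 groups. HCT116 CD44s-OE against CD44v6-OE gave 1, with 4 without the filter, 3 in DESeq2, and 0 with robust=FALSE, at an adjusted p under 0.05 or with 2 groups. SW480 CD44s-OE against parental gave 0, with 1 each without the filter, in DESeq2 and with halved counts, and SW480 CD44s-OE against CD44v6-OE gave 0, with 1 with 2 groups. Over both lines, CD44s-OE against parental gave 5, with 12 without the filter and 9 in DESeq2, CD44s-OE against CD44v6-OE gave 0, with 2 without the filter and 1 in DESeq2, and the line difference for CD44s-OE against parental gave 1, with 2 without the filter. Leaving out single libraries gave 1 to 26 members in HCT116 CD44s-OE against parental, 0 to 1 in CD44v6-OE against parental and 0 to 14 between isoforms. In SW480 the ranges were 0 to 5, 0 to 1 and 0 to 1, over both lines 1 to 9 for CD44s-OE against parental, 0 to 2 for its line difference and 13 to 20 between parental lines. The log2 fold change of MYC changed sign in such fits, with ranges of -0.27 to 0.23 for HCT116 CD44v6-OE against parental, -0.47 to 0.38 for SW480 CD44s-OE against parental, -0.26 to 0.59 for SW480 CD44v6-OE against parental and -0.41 to 0.00 between SW480 isoforms. The share of all tested genes that passed also moved when single libraries were left out. The highest HCT116 counts, 26 and 14, came from the fit without CD44s-OE replicate 2, which leaves 1 CD44s-OE library. In that fit the share of all tested genes that were lower was also above the main fit in both comparisons. Those counts are therefore given only as ends of a range. The cause of these shifts was not tested. Same-numbered libraries deviated with correlations of 0.05 to 0.175 in HCT116 and -0.199 to 0.134 in SW480, so the numbers were not taken as pairs. A replicate block gave 18 members in HCT116 CD44s-OE against parental, 16 of them among the 17. A crossed replicate block for SW480, chosen after seeing the data as was the run of the other lists without HCT116 parental replicate 2, gave 1 member (BYSL) for CD44s-OE against parental and 0 between isoforms. With 2 libraries a group, small differences cannot be resolved.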

Other observations

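In the authors' variance-stabilized table, the median difference of the 34 members between CD44s-OE and parental HCT116 was -0.47, with 32 members below 0, and that between CD44s-OE and parental SW480 was -0.09, with 26 below 0. PNO1, a small subunit factor, was the member that differed most between the parental HCT116 libraries, by 0.70 on the log2 scale, with replicate 2 higher.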
